A study of Homo sapiens with 6 samples.

Results

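The condensin subunits were read from RNA-seq of PC9-BrM3 cells, which were derived from brain metastases of the human lung adenocarcinoma line PC9 grown in mice. They were chosen by gene name, and all 8 listed subunits were found among the 58735 genes of the table of FPKM values, which are reads scaled to gene length and library size. Of these, SMC2 and SMC4 belong to both complexes, NCAPD2, NCAPG and NCAPH to condensin I, and NCAPD3, NCAPG2 and NCAPH2 to condensin II. The study compared cells carrying a lentiviral shRNA against AKR1B10 (BrM3-shAKR1B10, labeled AKR1B10 knockdown) with cells carrying a negative control shRNA (BrM3-shNC, labeled WT), with 3 libraries in each group. The paper's legends name shRNA vector 1 for BrM3-shAKR1B10, so that the contrast rests on a single shRNA. All 6 libraries came from cells in routine culture, and the sources do not say whether the 3 libraries of a group came from separate cultures. The p-values therefore measure only the spread between these libraries, which may be technical.

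AKR1B10, the targeted gene, was between 107 and 110.2 FPKM in BrM3-shAKR1B10 and between 772 and 799 FPKM in BrM3-shNC, in the order that the labels give. Reads assigned to genes numbered 16964504 to 18709028 per library. The epithelial markers EPCAM, KRT8, KRT18, KRT19 and CDH1 were at 44.8 FPKM or more in every library, whereas the lung lineage markers NKX2-1, NAPSA, SFTPB and SFTPC were at 0.677 FPKM or less. Summed levels of the brain, blood, endothelial and fibroblast markers were at most 2.37 FPKM for any list in any library, with DCN and LUM at 0 in all libraries.

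Condensins are ring-shaped ATPase complexes that fold chromatin fibers into compact mitotic chromosomes by extruding loops of DNA. Both complexes share the ATPase pair SMC2 and SMC4, and each adds its own kleisin, which closes the ring (NCAPH or NCAPH2), and its own pair of HEAT-repeat subunits (NCAPD2 and NCAPG, or NCAPD3 and NCAPG2). Condensin II is nuclear through interphase and starts compaction in prophase. Condensin I is cytoplasmic and reaches the chromosomes once the nuclear envelope breaks down. Transcripts of many mitotic chromosome proteins rise toward G2 and mitosis through promoter elements such as the cell cycle homology region (CHR) and the CCAAT box.

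All 8 subunits had lower means in BrM3-shAKR1B10, with a median log2 fold change of -1.16 over the condensin I and -0.40 over the condensin II subunits. NCAPH and NCAPG, the kleisin and a HEAT subunit of condensin I, were left with 42.9% and 44.3% of the BrM3-shNC level. SMC2, SMC4, NCAPD2 and NCAPG2 were left with between 53.4% and 56.1%, and the condensin II subunits NCAPD3 and NCAPH2 kept 75.6% and 77.0%. At an adjusted p under 0.05 (limma on log2(FPKM + 0.1), Benjamini-Hochberg over 13150 genes) and a log2 fold change below -0.5, 6 of the 8 subunits passed, against 7.45% of all genes tested. At the adjusted p alone all 8 were lower, against 23.1% of genes, and in all 8 every BrM3-shAKR1B10 library lay below every BrM3-shNC library, against 29.2% of genes. No subunit was higher, against 5.83% of genes. The median log2 fold change was -0.88 over the 8 subunits and -0.01 over all genes tested. In these bulk libraries, fewer cells in G2 or mitosis and less condensin RNA per cell cannot be told apart. From flow cytometry, the paper reports that silencing AKR1B10 led to cell cycle arrest in these cells. Its part in the condensin values was not tested.

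**Figure D1:**
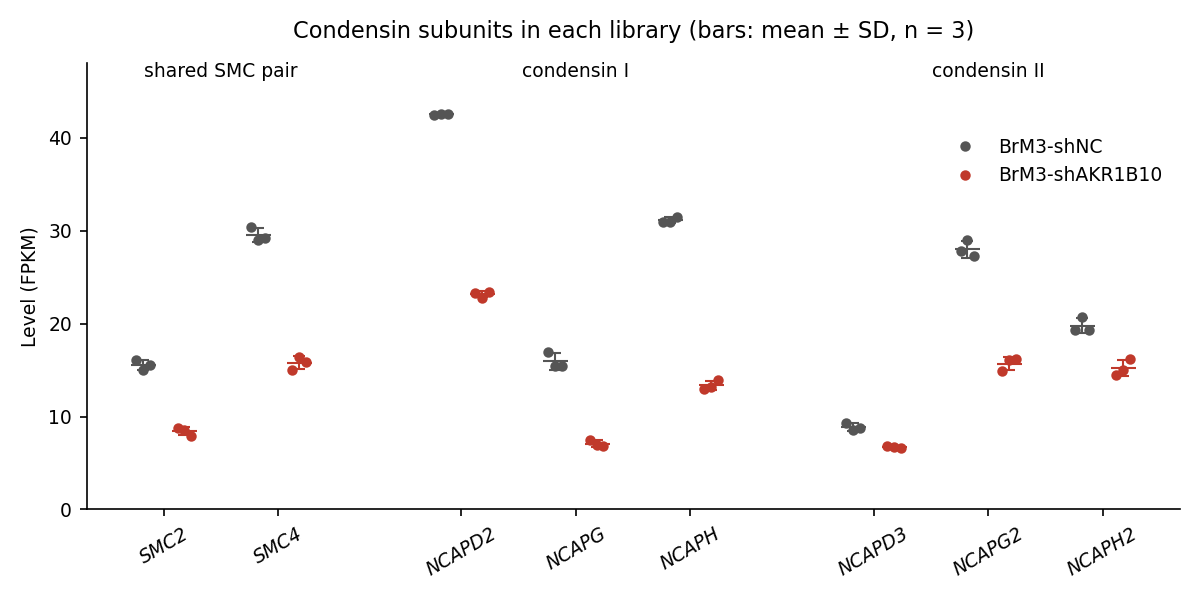
Level of each condensin subunit in FPKM (vertical axis, linear from 0) in the 3 BrM3-shNC (grey) and 3 BrM3-shAKR1B10 (red) libraries. Points are libraries, horizontal marks are means and bars are SD; for each subunit the red points lie below the grey points, with the narrowest gaps at NCAPD3 and NCAPH2.

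The subunits lie on 8 different chromosomes (GRCh38), so that none shares a locus with another. SMC2 (ENSG00000136824) is on chromosome 9 (plus strand, 104094260 to 104141417), and SMC4 (ENSG00000113810) on chromosome 3 (plus strand, 160399274 to 160434962). Of the condensin I genes, NCAPD2 (ENSG00000010292) is on chromosome 12 (plus strand, 6493356 to 6531955), NCAPG (ENSG00000109805) on chromosome 4 (plus strand, 17810902 to 17844862), and NCAPH (ENSG00000121152) on chromosome 2 (plus strand, 96335787 to 96373845). Of the condensin II genes, NCAPD3 (ENSG00000151503) is on chromosome 11 (minus strand, 134150119 to 134225454), NCAPG2 (ENSG00000146918) on chromosome 7 (minus strand, 158631311 to 158704829), and NCAPH2 (ENSG00000025770) on chromosome 22 (plus strand, 50508216 to 50523472).

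Because 6 subunits fell together, the promoters of all 8 were searched for 3 cell cycle motifs. RefSeq promoters (GRCh38.p14, 250 bases before to 50 after a start) were on hand for 7 of the 8 subunits, with 10 starts in all; NCAPH2 had no entry. On both strands, the CHR words TTTGAA or TTCGAA were present at 6 of the 10 starts, in 6 of the 7 genes, against 16.4% of all 35116 promoters and 19.5% of all genes with an entry. The CCAAT box (CCAAT) was present in 3 of the 7 genes, NCAPD2, NCAPH and NCAPD3, against 39.7% of all genes. The E2F core words TTTCCCGC, TTTGGCGC, TTTCGCGC and TTTGCCGC gave a single match, in NCAPD3, against 3.99% of all genes. A match is a description of the letters only. The 30 bases around each CHR word are shown in the direction of the gene, with the word in capitals (TTCAAA is TTTGAA read on the other strand), and for NCAPH, which had no CHR word, the 30 bases around its CCAAT box.
SMC2 (chr9:104094294-104094323, plus strand): ctcgcgccgaaaTTCAAAggaataaatagt
SMC4 (chr3:160399563-160399592, plus strand): gccgcactttttTTCAAAttagtggatccc
NCAPD2 (chr12:6493945-6493974, plus strand): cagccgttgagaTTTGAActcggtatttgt
NCAPG (chr4:17810932-17810961, plus strand): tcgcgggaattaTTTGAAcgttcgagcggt
NCAPH (chr2:96335642-96335671, plus strand): accccaagaagcCCAATcagacggggtcct
NCAPD3 (chr11:134223953-134223982, minus strand): gcgggagcgagcTTTGAAagttgagcacgg
NCAPG2 (chr7:158704755-158704784, minus strand): gcgccggcgggtgcgTTTGAAtctggtccg
The CHR word began 35 bases before the start in NCAPG, 75 bases before it in SMC4 and 145 bases before it in NCAPD2. It lay across the start itself in SMC2 and at the second listed start of NCAPD3, and began 35 bases after the start in NCAPG2. NCAPD2 also held 4 CCAAT boxes, the nearest 30 bases before the start. NCAPD3, with a log2 fold change of -0.40, held a CHR word, CCAAT boxes and an E2F core at the same start, and NCAPH, with the lowest log2 fold change of the 8, held a CCAAT box alone.

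SMC2 and SMC4 form the ATPase pair of both complexes. SMC2 was at 8.77, 8.55 and 7.92 FPKM in the 3 BrM3-shAKR1B10 libraries and at 16.1, 15.0 and 15.5 FPKM in the 3 BrM3-shNC libraries. SMC4 was at 15.0, 16.4 and 15.8 FPKM against 30.4, 28.9 and 29.2 FPKM. For both genes the groups were separated by more than the spread within either group. The log2 fold change was -0.88 for SMC2 (limma adjusted p = 5.5e-05, standard error 0.0516) and -0.90 for SMC4 (limma adjusted p = 2.7e-05, standard error 0.0434). The ratio of SMC4 to SMC2 was 1.88 ± 0.147 in BrM3-shAKR1B10 and 1.90 ± 0.0251 in BrM3-shNC (SD, n = 3 each), and the values of both groups overlapped.

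Among the condensin I subunits, NCAPD2, the HEAT subunit D, had the highest level of the 8 genes in both groups. NCAPD2 was at 23.3, 22.8 and 23.4 FPKM in BrM3-shAKR1B10 and at 42.4, 42.5 and 42.6 FPKM in BrM3-shNC, with a log2 fold change of -0.87 (limma adjusted p = 1.0e-05, standard error 0.0281). NCAPG, the HEAT subunit G, was at 7.50, 6.89 and 6.80 FPKM against 17.0, 15.4 and 15.4 FPKM, with a log2 fold change of -1.16 (limma adjusted p = 3.0e-05, standard error 0.0587). NCAPH, the kleisin, was at 13.0, 13.2 and 13.9 FPKM against 30.9, 31.0 and 31.5 FPKM. Its log2 fold change of -1.22 (limma adjusted p = 9.9e-06, standard error 0.0366) was the lowest of the 8, and ranked 107 from the lowest among the 13150 genes tested. Only NCAPG and NCAPH passed a log2 fold change below -1, against 1.56% of genes tested. The 95% interval of the log2 fold change of NCAPD2 ran from -0.94 to -0.81 and did not meet that of NCAPH, from -1.30 to -1.13.

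Of the condensin II subunits, NCAPG2 passed both thresholds and NCAPD3 and NCAPH2 did not. NCAPG2, the HEAT subunit G2, was at 14.9, 16.0 and 16.1 FPKM in BrM3-shAKR1B10 and at 27.8, 28.9 and 27.2 FPKM in BrM3-shNC. It fell by 0.83 on the log2 scale (limma adjusted p = 3.9e-05, standard error 0.0450), close to those of SMC2 and SMC4. NCAPD3, the HEAT subunit D3, was at 6.78, 6.68 and 6.64 FPKM against 9.33, 8.51 and 8.76 FPKM, and NCAPH2, the kleisin, at 14.5, 15.0 and 16.2 FPKM against 19.3, 20.7 and 19.3 FPKM. Their groups did not overlap, but the gap between the nearest libraries was the narrowest of the 8 genes. The log2 fold change was -0.40 for NCAPD3 (95% interval -0.51 to -0.29, limma adjusted p = 8.3e-04) and -0.38 for NCAPH2 (95% interval -0.50 to -0.25, limma adjusted p = 0.0020). Both fell short of the 0.5 threshold, and both intervals reached it. On the log2 scale, NCAPG2 exceeded the mean of NCAPD3 and NCAPH2 by 0.63 ± 0.0458 in BrM3-shAKR1B10 and by 1.07 ± 0.0399 in BrM3-shNC (SD, n = 3 each), a contrast chosen after the values were seen and given without a test.

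Condensin I was then compared with condensin II within each library, through the ratio of the corresponding subunits. The log2 ratio of NCAPH to NCAPH2 was -0.15, -0.18 and -0.22 in BrM3-shAKR1B10 and 0.67, 0.58 and 0.71 in BrM3-shNC. The NCAPH transcript thus made up 46.7% ± 0.607 of the kleisin FPKM in BrM3-shAKR1B10 and 61.2% ± 1.08 in BrM3-shNC (SD, n = 3 each), and the kleisin with the higher level was NCAPH in all 3 control libraries and NCAPH2 in all 3 silenced libraries. The linear ratio of NCAPD2 to NCAPD3 was 3.44, 3.41 and 3.52 against 4.54, 5.00 and 4.86, with NCAPD2 higher in every library. The linear ratio of NCAPG to NCAPG2 was 0.503, 0.430 and 0.421 against 0.611, 0.531 and 0.567, with NCAPG2 higher in every library and only a small gap between the groups. Which subunit of a pair had the higher level rests on the annotated length of each gene.

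On the log2 scale, these ratios differed between the groups by -0.84 (standard error 0.0428) for NCAPH/NCAPH2, -0.48 (standard error 0.0428) for NCAPD2/NCAPD3 and -0.33 (standard error 0.0992) for NCAPG/NCAPG2. In each of the 3 pairs every BrM3-shAKR1B10 library lay below every BrM3-shNC library. An exact two-sided permutation test gave p = 0.10 for each pair, the smallest that 3 against 3 libraries allow, and 0.10 after Benjamini-Hochberg adjustment over the 3 pairs, so that no pair could reach 0.05. The mean log2 level of the condensin I subunits exceeded that of the condensin II subunits by 0.21, 0.12 and 0.11 in BrM3-shAKR1B10 and by 0.71, 0.66 and 0.72 in BrM3-shNC, a difference of -0.55 between the groups. The summed level of the 3 condensin I subunits was 43.6 ± 0.629 FPKM with AKR1B10 silence against 89.6 ± 0.669 FPKM without it, and that of the 3 condensin II subunits was 37.6 ± 1.44 and 56.6 ± 1.46 FPKM (SD, n = 3 each).

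**Figure D2:**
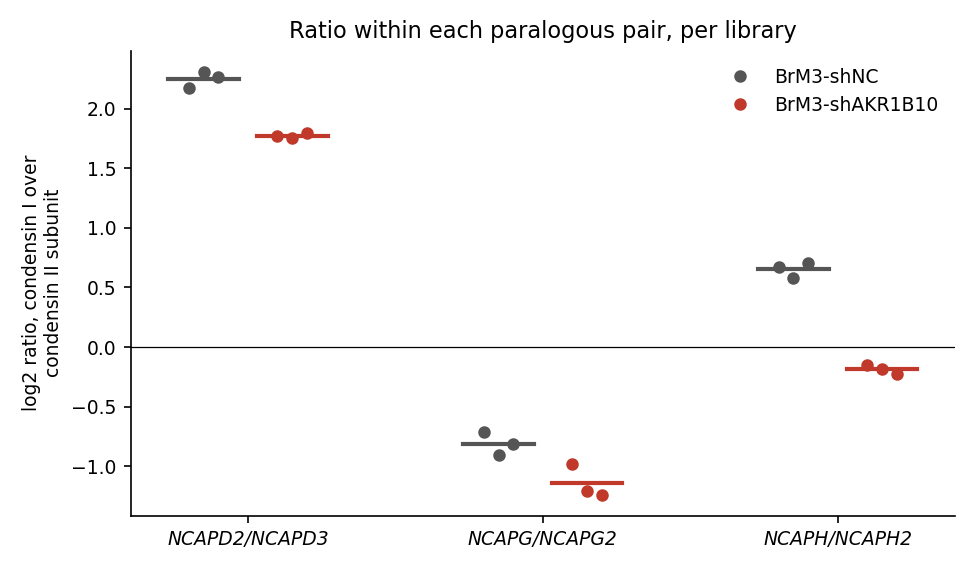
Log2 ratio of a condensin I subunit to its condensin II counterpart (vertical axis) in each BrM3-shNC (grey) and BrM3-shAKR1B10 (red) library for the 3 pairs. Points are libraries and horizontal lines are means; the red points lie below the grey points in each pair, and NCAPH/NCAPH2 crosses 0, from 0.65 to -0.19 on average.

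FPKM is scaled to the annotated length of each gene, so the order of the subunits within a group depends on those lengths. The levels are of RNA, and the amounts of protein in the complexes were not measured here. In BrM3-shNC the order of mean FPKM was NCAPD2 (42.5), NCAPH (31.1), SMC4 (29.5), NCAPG2 (28.0), NCAPH2 (19.8), NCAPG (15.9), SMC2 (15.5) and NCAPD3 (8.87). The ranges of the 3 libraries overlapped between SMC4 and NCAPG2 and between NCAPG and SMC2, and no other neighbors overlapped. In BrM3-shAKR1B10 the order was NCAPD2 (23.2), SMC4 (15.8), NCAPG2 (15.7), NCAPH2 (15.2), NCAPH (13.4), SMC2 (8.41), NCAPG (7.06) and NCAPD3 (6.70). Here SMC4, NCAPG2 and NCAPH2 overlapped in turn and could not be ranked beyond their spread. NCAPH stood in the second place of the control order and in the fifth place here. NCAPG, which had been level with SMC2, came to lie below it in all 3 libraries. SMC2 amounted to 0.295 ± 0.0290 of the summed kleisin FPKM in BrM3-shAKR1B10 and 0.305 ± 0.0151 in BrM3-shNC (SD, n = 3 each), and these values overlapped.

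**Figure D3:**
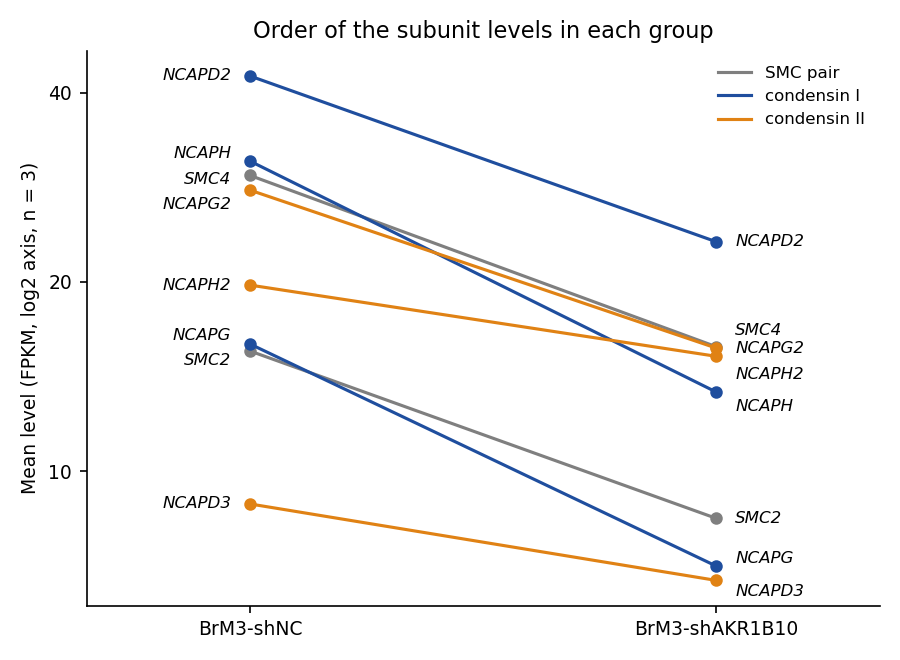
Mean FPKM of the 8 subunits (vertical axis, log2 scale, n = 3 libraries) in BrM3-shNC and BrM3-shAKR1B10, joined by a line for each gene and colored by complex. The lines of NCAPH and NCAPG fall more steeply than those of NCAPH2 and NCAPD3, so that NCAPH crosses NCAPH2.

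Most of the listed genes whose products act with condensin were lower in BrM3-shAKR1B10. The list was chosen with earlier results of these data known. Of a list of 15 partners and regulators, all could be tested, of which 10 were lower and 0 higher (limma, the same thresholds, against 7.45% lower and 5.83% higher over all genes tested), with a median log2 fold change of -1.05. The structural partners MKI67, the surfactant of the chromosome surface, TOP2A, the mitotic topoisomerase, and KIF4A, a chromokinesin that binds condensin I, had log2 fold changes of -1.34, -1.17 and -1.07. The kinases that phosphorylate condensin subunits in mitosis were lower too, with -1.14 for PLK1, -1.11 for AURKB, -1.07 for CDK1 and -1.02 for TTK, and CCNB1, the cyclin of CDK1, had -1.23. CDCA2, a phosphatase-targeting subunit on anaphase chromosomes, had -1.05.

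TOP2B, the topoisomerase that is not tied to the cell cycle, averaged 23.6 ± 0.562 FPKM with AKR1B10 silence against 25.8 ± 0.709 FPKM without it (n = 3 per group, SD), and its log2 fold change was -0.13 (limma adjusted p = 0.026). The phosphatase subunit PPP2CA had a log2 fold change of -0.18 (limma adjusted p = 0.037), the kinase CSNK2A1 one of -0.12 (0.034) and the chromatin anchor AKAP8 one of -0.19 (0.018). These 4 genes were lower at the adjusted p alone, with groups that did not overlap, but within the 0.5 threshold. At the adjusted p alone 14 of the 15 partners were lower, against 23.1% of genes. In 14 of the 15 every BrM3-shAKR1B10 library lay below every BrM3-shNC library, against 29.2% of genes. MCPH1, an inhibitor of condensin II, was at 1.19 ± 0.0637 against 1.18 ± 0.151 FPKM (SD, n = 3 each). Its log2 fold change of 0.01 (limma adjusted p = 0.948, standard error 0.152) rested on a low level.

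The other SMC complexes had medians nearer to 0. Of 10 cohesin genes, whose products hold sister chromatids together, 1 was lower past both thresholds, near the 7.45% of all genes tested, and none was higher, with a median log2 fold change of -0.27. At the adjusted p alone 7 of the 10 were lower, against 23.1% of genes, and in 8 of the 10 every BrM3-shAKR1B10 library lay below every BrM3-shNC library, against 29.2%. The gene past both thresholds was RAD21, the cohesin kleisin, with -1.17, a log2 fold change near that of NCAPH, whereas STAG1 had -0.49, SMC1A had -0.44 and SMC3 had -0.27. The number of lower cohesin genes was 2 with voom on the recovered reads, and also without replicate 2 of either group. MAU2, a loader subunit, had the highest value of the list, 0.12 (limma adjusted p = 0.0750). Of 7 genes of the SMC5/6 complex, which acts in DNA repair, none was lower past both thresholds and 1 was higher, against 7.45% and 5.83% of all genes tested, with a median of -0.13. At the adjusted p alone 3 of the 7 were lower, against 23.1% of genes. SMC5 had a log2 fold change of 0.16 (limma adjusted p = 0.014), within the 0.5 threshold. EID3, a subunit known from the testis, averaged 6.77 ± 0.784 FPKM with AKR1B10 silence against 3.10 ± 0.559 FPKM without it (n = 3 per group, SD), and its log2 fold change was 1.11 (limma adjusted p = 0.0013). It was not tested where the mean FPKM had to be at least 5. The lowest of that list were SMC6 (-0.40), NSMCE4A (-0.36) and NSMCE1 (-0.14).

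Both cell cycle lists had medians below 0. Of 52 G2/M phase genes, with SMC4 and NCAPD2 left out of the list, 48 passed as lower and 0 as higher, against 7.45% and 5.83% of all genes tested, with a median log2 fold change of -1.09. Of the 43 S phase genes, 42 could be tested, of which 19 were lower and none was higher, against the same shares of all genes, and the median was -0.48. Of the 15 condensin partners, 6 are also in the G2/M list. The lowest G2/M genes were CENPA (-1.45), HMMR (-1.36) and GAS2L3 (-1.36), and the highest was CBX5 (-0.15). Low values among the S phase genes were those of PRIM1 (-1.06) and DSCC1 (-0.98), and the highest was TIPIN (-0.04). NCAPH and NCAPG lay among the G2/M values, with 12 and 15 of the 52 genes below them. SMC2, SMC4, NCAPD2 and NCAPG2 had 40, 38, 40 and 41 of the 52 below them. They had 5, 4, 5 and 5 of the 42 S phase genes below them. NCAPD2 of condensin I and NCAPG2 of condensin II thus lay close together. NCAPD3 and NCAPH2 each had 49 of the 52 below them, and 26 and 27 of the 42 S phase genes. The part of the cell cycle distribution in the condensin values was not tested.

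**Figure D4:**
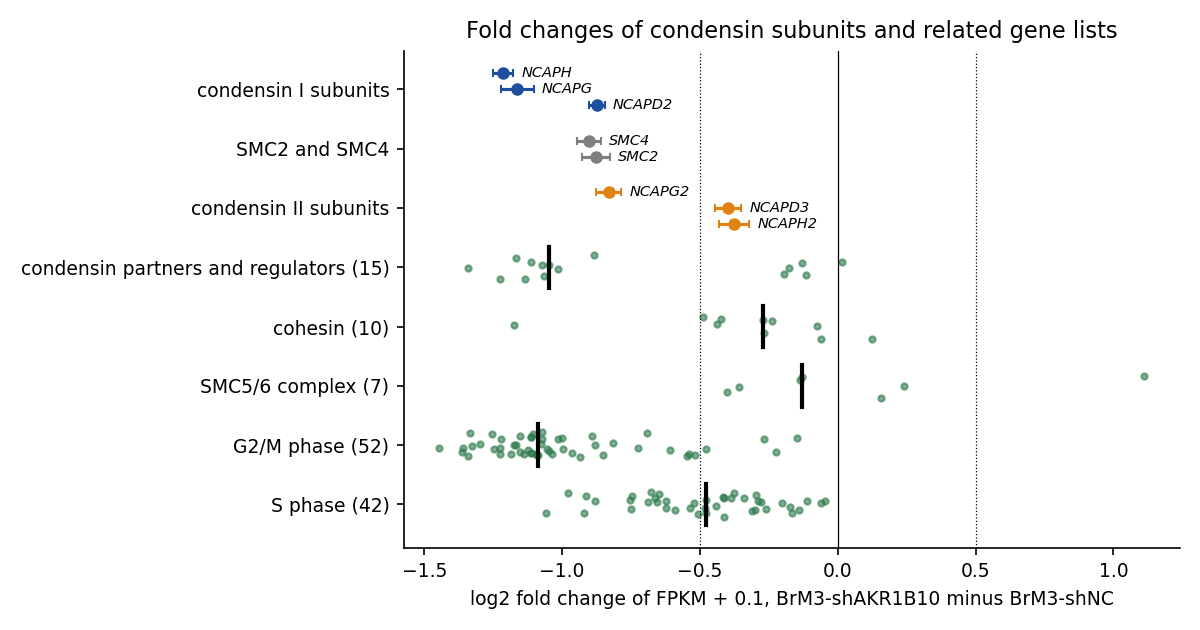
Log2 fold change on the log2(FPKM + 0.1) scale (horizontal axis, BrM3-shAKR1B10 minus BrM3-shNC) of the condensin subunits (bars: standard error) and of the tested genes of 5 lists (green points, with the number of genes in parentheses and the median as a black line). Dotted lines mark -0.5 and 0.5. NCAPH and NCAPG lie below the G2/M median of -1.09. SMC4 (-0.90), SMC2 (-0.88), NCAPD2 (-0.87) and NCAPG2 (-0.83) lie together above it. NCAPD3 and NCAPH2 lie near the S phase median of -0.48.

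The protein-coding genes nearest to the mean profile of each complex were found by distance over the 6 libraries. Each profile was taken as log2(FPKM + 0.1) minus its own mean, among 10769 genes. Nearest to the mean of the condensin I subunits were TPX2, a spindle assembly factor (distance 0.0413), DBF4B, an activator of the replication kinase CDC7 (0.0443), and CCNA2, cyclin A2 (0.0605). TPX2 averaged 31.8 ± 0.539 FPKM with AKR1B10 silence against 67.2 ± 0.162 FPKM without it (n = 3 per group, SD). Nearest to the mean of the condensin II subunits were GPRC5B, an orphan receptor (0.0416), MCM3, a subunit of the replicative helicase (0.0532), and CCNI, an atypical cyclin (0.0559). MCM3 was at 24.4 ± 1.14 against 35.6 ± 0.101 FPKM (SD, n = 3 each). Each mean lies between unlike subunits. The log2 fold change of TPX2 (-1.08) lay between those of NCAPG (-1.16) and NCAPD2 (-0.87). That of GPRC5B (-0.53) lay between those of NCAPG2 (-0.83) and NCAPD3 (-0.40). The distances are a description over 6 libraries in 2 groups, which share the difference between the groups.

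Each subunit held between 593 and 5045 reads per library, which gives a counting error of 4.11% at the fewest and 1.41% at the most reads. The largest SD of a subunit within a group was 5.92% of its mean. Some subunits overlap genes on the opposite strand, and whether counting used the strand is not given in the sources used here. At the SMC4 locus, TRIM59 held at most 356 reads per library and IFT80 at most 623, against 2247 or more on SMC4, and TRIM59 was lower with a log2 fold change of -0.59 (limma adjusted p = 0.0050). At NCAPD3, VPS26B held at most 920 reads against 1074 or more, with 0.33 as its log2 fold change (limma adjusted p = 0.0016), opposite to that of NCAPD3. MRPL51 overlaps the start of NCAPD2, with at most 1620 reads against 2669 or more on NCAPD2. LCORL overlaps the end of NCAPG, with at most 236 reads. The microRNA genes MIR15B and MIR16-2 lie within SMC4 and were listed at 0 reads, as were the named pseudogenes of SMC4, NCAPD2 and NCAPG.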

How the data were processed

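Libraries were made from poly-A RNA, sequenced as paired-end reads, aligned by the authors with HISAT2 2.0.5 and counted per gene with featureCounts 1.5.0-p3 (submitters' processing notes and supplementary methods). The authors deposited FPKM, which already carries a scaling between libraries. Gene IDs and positions of all 58735 genes matched GENCODE 29 (GRCh38). FPKM times gene length, multiplied by a factor for each library that was found from the steps between low values, gave whole reads for 100% of values (tolerance 0.01 reads).

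The 13150 genes averaging 1 FPKM or more were tested on the log2(FPKM + 0.1) scale, using limma 3.58.1 (R 4.3.3) (trended eBayes, Benjamini-Hochberg adjustment, no block), in place of the count test of the study, since the deposited unit is FPKM. The recovered reads were used for an alternative fit only. The pseudocount shrinks fold changes of low genes toward 0. Thresholds were an adjusted p of 0.05 and a log2 fold change of 0.5, as in the study. Ratios, promoters and figures used Python 3.11.15. The limma fit was tested on simulated reads. A level of 3 reads amounts to at most 0.177 FPKM for a gene of 1000 bases, and such floors cover counting error only.

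The members and gene lists were chosen with earlier results of these data known. Named genes are the subunits, AKR1B10, all partners, the 3 lowest and the highest of each list, the 3 nearest to each complex, and overlapping genes, of which some are not reported here. SMC3, SMC5, DCAF16 and LMF2 fall outside this rule and were chosen after their values were seen.

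The alternatives changed the pseudocount (0.01 or 1), the filter (none, or 5 FPKM on average), the scaling (TPM or quantile normalisation), the variance trend (none), the unit (recovered reads with voom), the pairing (replicate block), the genes tested (protein-coding), the fold change threshold (1 or none) and the libraries (each omitted once).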

Additional observations from a re-analysis of the deposited data

How the results depend on the processing

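Each subunit's log2 fold change was recomputed under 16 alternatives, and all 128 values kept their direction and their side of the thresholds. NCAPH ranged from -1.24 to -1.14, NCAPG from -1.21 to -1.07, NCAPD3 from -0.43 to -0.36 and NCAPH2 from -0.42 to -0.33, with adjusted p-values up to 0.0102 (limma, NCAPH2). The number of lower subunits was 6 under each of these, 8 with no fold change threshold and 2 with a log2 fold change threshold of 1. The lower cohesin genes numbered 2 in place of 1 with voom on the recovered reads, and ranged from 1 to 2 over the 6 fits that each omitted a library, 2 being the number without BrM3-shAKR1B10 replicate 2 or BrM3-shNC replicate 2. At a mean FPKM of at least 5, EID3 was not tested and the number of higher SMC5/6 genes was 0. That filter left 532 lower and 290 higher genes, against 980 and 766, since fewer genes were tested, and a pseudocount of 1 left 497 higher genes. Same-numbered libraries did not deviate together (correlations between -0.0155 and 0.0039), and were not taken as pairs. With the replicate block, 967 genes were lower and 719 higher, and the number of lower subunits was again 6. The difference between the complexes of -0.55 ranged from -0.58 to -0.53 over the fits that each omitted a library.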

Other observations

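Several subunits have a close neighbor read from the opposite strand, whose start lies at or near theirs. These neighbors were singled out after their values were seen, apart from IFT80, MRPL51 and VPS26B, which overlap a subunit. IFT80, a ciliary transport gene whose start overlaps that of SMC4, averaged 4.65 ± 0.248 FPKM with AKR1B10 silence against 4.35 ± 0.108 FPKM without it (n = 3 per group, SD), and its log2 fold change was 0.09 (limma adjusted p = 0.227). MRPL51, a mitochondrial ribosomal protein gene at the start of NCAPD2, was at 54.3 ± 1.91 against 58.3 ± 3.01 FPKM (SD, n = 3 each), and its log2 fold change was -0.10 (limma adjusted p = 0.132). DCAF16, a substrate receptor of a ubiquitin ligase next to NCAPG, stood at -0.09 on the log2 fold change scale (limma adjusted p = 0.245). LMF2, next to NCAPH2, had -0.08 (limma adjusted p = 0.204). VPS26B, a retromer gene that starts within 1000 bases of the NCAPD3 start, averaged 7.60 ± 0.239 against 6.03 ± 0.167 FPKM (SD, n = 3 each), and its log2 fold change was 0.33 (limma adjusted p = 0.0016). None of these 5 neighbors passed both thresholds, which 7.45% of all genes tested did as lower and 5.83% as higher. The difference between a subunit and its neighbor was not tested.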
